A study of Mus musculus with 18 samples.

Results

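Immunoglobulin variable (V) segments are the germline pieces from which the antigen-binding ends of antibody chains are built. Here they were taken as the rows of the count table that the annotation types as V genes of immunoglobulin and that are named Ighv, Igkv or Iglv. That rule gave 216 of 55385 genes, made up of 113 heavy chain, 100 kappa chain and 3 lambda chain segments, and it used no measured value. They were read in 18 polyA RNA sequencing libraries of mouse kidney, 6 for each of 3 genotypes (3 from males and 3 from females). The mice were 17.1 to 18.0 weeks old and received no treatment. The controls were wild-type C57BL/6J mice. Dp16 mice carry a duplication of the stretch of mouse chromosome 16 that corresponds to much of human chromosome 21, and serve as a model of Down syndrome. Dp16 2xIFNRs mice carry the Dp16 duplication with the dosage of the interferon receptor genes, which lie inside it, returned to normal. The design thus asks what the duplication changed in the kidney and what differed once the interferon receptors were no longer in excess.

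In each B cell precursor 1 V segment is joined to a J segment, with a D segment between them on the heavy chain, and the joined exon is spliced to a constant region gene such as Igkc. Each B cell clone and the antibody-secreting plasma cells derived from it therefore transcribe mainly 1 heavy and 1 light V segment, so that the mix of V segments in a tissue reflects how many clones contribute RNA and how evenly. Reads of a joined V exon were counted under the germline segment to which they were assigned, which need not be the one they came from. In whole kidney RNA, fewer cells and less RNA per cell cannot be told apart, and a high share of 1 segment does not by itself show 1 clone.

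Library totals ran from 42157790 to 57814587 counts, and V segments took 1566 to 12227 of them, or 0.00299 to 0.0261%. The tissue label matched the data: Umod, made by the thick ascending limb, and Slc34a1, the proximal tubule phosphate transporter, were at no less than 3302 and 4575 CPM (counts scaled to a common library total) in any library. Glycam1, a gene of lymph node vessels, had 24 and 17 counts in Dp16 libraries 2 and 3 and at most 1 count in every other library. The V segment totals and calls in Dp16 are therefore also given without those 2 libraries. The labels do not say that each sample came from its own animal, so p-values measure the spread between these samples.

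Summed V segment RNA was higher in every library of both Dp16 genotypes than in every wild-type library. The sum over all 216 segments was 29.9 to 55.3 (median 42.3) CPM in wild-type, 87.9 to 261 (median 119) CPM in Dp16 and 63.4 to 231 (median 112) CPM in Dp16 2xIFNRs. The means were 43.8 ± 9.95 (SD, n = 6), 145 ± 64.9 and 132 ± 62.3 CPM, which are 3.31 and 3.01 times the wild-type mean. The ranges of the 2 Dp16 genotypes overlapped. No test was made of sums over the segments, because the list was chosen with earlier results known.

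Heavy chain segments summed to 14.0 ± 3.52 CPM in wild-type, 43.9 ± 19.6 in Dp16 and 42.4 ± 19.4 in Dp16 2xIFNRs (SD, n = 6). For kappa segments the sums were 28.4 ± 6.75, 97.2 ± 44.0 and 86.2 ± 42.6 CPM. In these 2 chains no library of either Dp16 genotype overlapped the wild-type libraries. The lambda sums were 1.44 ± 0.380, 3.91 ± 1.67 and 3.19 ± 0.610 CPM, and 1 Dp16 library, at 1.71 CPM, lay within the wild-type range of 1.07 to 1.94 CPM. The kappa locus supplied most V counts in each group and lambda the fewest.

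**Figure D1:**
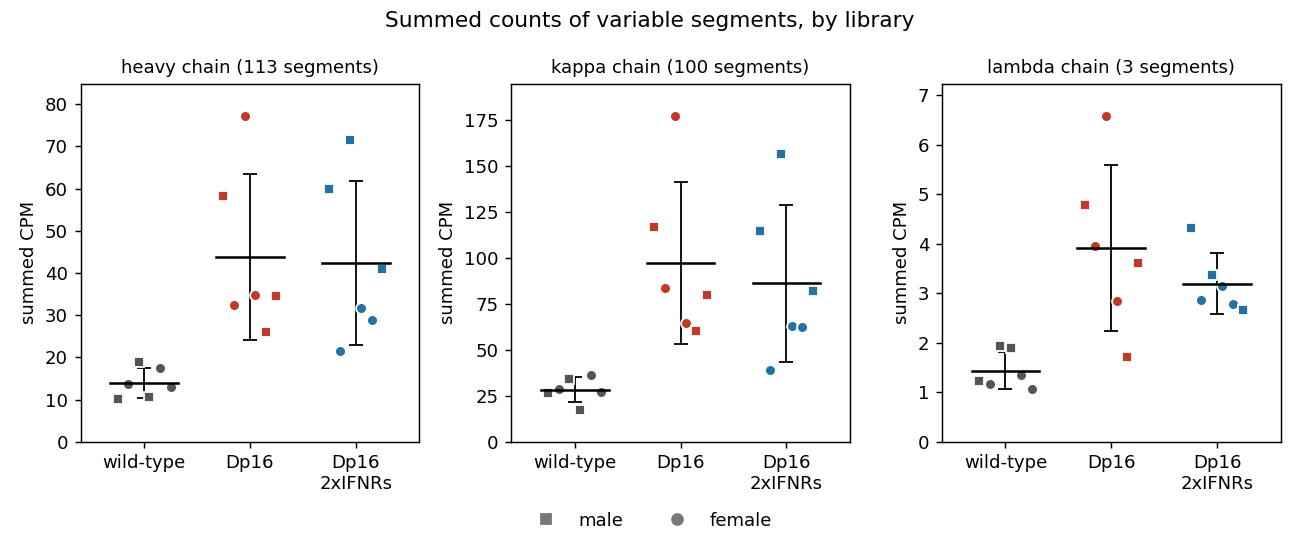
Summed CPM of the heavy, kappa and lambda V segments in each of the 18 libraries, by genotype; squares are males, circles females, the line is the mean and the bar its SD (n = 6). Heavy and kappa sums of both Dp16 genotypes lie above all wild-type libraries, with Dp16 3 the highest library of all at 77.2 and 177 CPM.

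The spread within a genotype was wide in the Dp16 lines. Dp16 libraries differed from 87.9 CPM in Dp16 5 to 261 CPM in Dp16 3. In Dp16 2xIFNRs the 3 males (126 to 231 CPM) all lay above the 3 females (63.4 to 98.0 CPM). Males and females overlapped in Dp16 (87.9 to 180.1 against 103 to 261 CPM) and in wild-type (29.9 to 55.2 against 41.3 to 55.3 CPM). In edgeR's quasi-likelihood test, 0 segments differed between the sexes in their change from wild-type at an adjusted p under 0.05, while 3 (Dp16) and 1 (Dp16 2xIFNRs) of all 17575 genes did. At an unadjusted p under 0.05 there were 8 of 121 segments in Dp16, beside 7.85% of all genes, and 24 in Dp16 2xIFNRs, beside 3.53%. Without Dp16 libraries 2 and 3 the difference of mean log2 CPM between Dp16 and wild-type was 1.46, against 1.65 with all 6.

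Of the 216 segments, 200 had at least 1 count in some library, 59 were seen in all 18 libraries and 9 in 1 library only. The 16 at 0 throughout were 15 heavy and 1 kappa segment, and 0 counts over the 18 libraries allow a level of up to 0.00323 CPM. The test across all genes kept 121 segments, 52 heavy, 66 kappa and 3 lambda, and left out 79 with too few counts besides the 16. Since a segment could pass through the libraries where it was high, counts over these 121 describe them and are not used as support. Counting over all 216, the Dp16 mean was above the wild-type mean for 183 segments and below it for 10. The corresponding numbers for Dp16 2xIFNRs were 176 and 18.

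In Dp16 against wild-type, 26 of the 121 tested segments rose and 0 fell at an edgeR adjusted p under 0.05, that is 11 heavy, 14 kappa and 1 lambda. Of all 17575 genes tested, 4.23% were called in that comparison, 3.17% higher and 1.06% lower. Every Dp16 library was above every wild-type library for 9 of the 121 segments and below for 0, against 1.02% and 0.114% of all genes. An unadjusted p under 0.05 was reached by 83 of 121, against 17.1% of all genes. Fold changes were above 0 for 119 of the 121 segments, and their median was 1.81 on the log2 scale (the same with Igkv12-98, at 0 counts in wild-type, at its bound), beside -0.01 for all genes. DESeq2 called 41 of the 121, beside 7.03% of all genes. Without the sex covariate edgeR called 8, beside 1.08%. Without Dp16 libraries 2 and 3 it called 10 of 131 segments then tested, beside 2.38% of all genes. Without wild-type 4 or Dp16 3 it called 12 each, beside 2.69% and 2.42%.

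In Dp16 2xIFNRs against the same wild-type libraries, 23 of 121 rose and 0 fell, being 9 heavy, 13 kappa and 1 lambda. Of all genes 4.79% were called, 3.17% higher and 1.61% lower. For 7 of the 121 every library was above every wild-type library and for 0 below, against 1.14% and 0.319% of all genes. An unadjusted p under 0.05 was reached by 65 of 121, against 18.2% of all genes. The median log2 fold change was 1.51, beside 0.01 for all genes, with 116 above 0. DESeq2 called 40, beside 7.32% of all genes, and the fit without the sex covariate 10, beside 1.33%. The count was 13 without wild-type 1, 14 without wild-type 3, 12 without wild-type 4 or wild-type 6, and 15 without Dp16 2xIFNRs 1 or 3, beside 2.96% to 4.58% of all genes. Because both comparisons use the 6 wild-type libraries, they are not independent of each other.

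Between Dp16 2xIFNRs and Dp16, edgeR called 0 of 121 segments and DESeq2 also 0. Of all genes 0.0171% were called, all of them lower in Dp16 2xIFNRs, and 0% higher. The groups did not overlap for 0 segments higher and 0 lower in Dp16 2xIFNRs, against 0.0626% and 0.0341% of all genes. An unadjusted p under 0.05 was reached by 7 of the 121, beside 4.71% of all genes. The median log2 difference was -0.23. These numbers do not show that the 2 genotypes used V segments alike, since the standard errors of this difference for the named segments ran from 0.27 to 0.97 on the log2 scale.

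**Figure D2:**
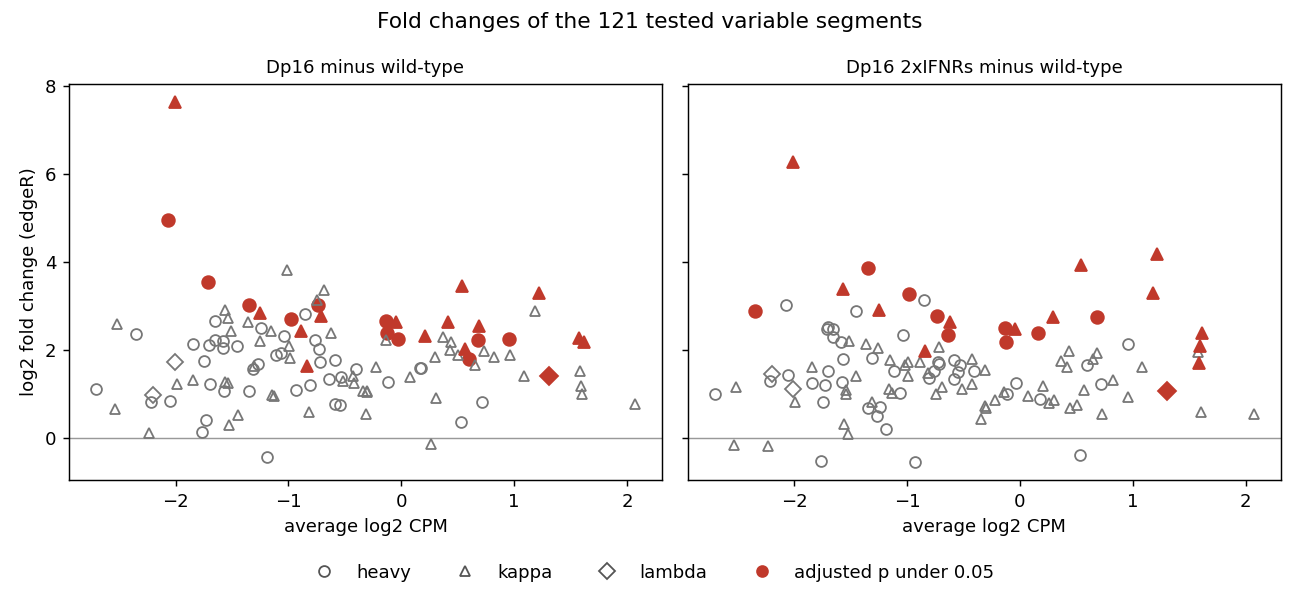
Log2 fold change from edgeR against average log2 CPM for the 121 tested V segments, Dp16 against wild-type on the left and Dp16 2xIFNRs against the same wild-type libraries on the right; filled red symbols have an adjusted p under 0.05. Nearly all symbols lie above 0, 119 on the left and 116 on the right, and the called segments number 26 and 23.

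The heavy chain segments lie between chr12:113578504 and 116000461 (GRCm38), all on the minus strand; a V gene typically has a short leader exon and a V exon. Per length, the highest mean levels over the 18 libraries were those of Ighv1-26 (5.48 RPKM), Ighv3-6 (4.67 RPKM) and Ighv1-53 (4.51 RPKM), followed by Ighv9-3, Ighv1-81 and Ighv1-9. Ighv1-26 (chr12:114788372-114788805, minus strand) and Ighv1-18 (chr12:114682632-114683065, minus strand) are each other's nearest relatives among the 216 and both rose in Dp16. Their coding sequences differ at 11 bases. The last 300 coding bases, spliced and read 5′ to 3′ from the GENCODE M21 transcripts, are shown with the 8 bases that differ in this stretch in capitals, since such bases decide under which segment a read is counted.
Ighv1-26: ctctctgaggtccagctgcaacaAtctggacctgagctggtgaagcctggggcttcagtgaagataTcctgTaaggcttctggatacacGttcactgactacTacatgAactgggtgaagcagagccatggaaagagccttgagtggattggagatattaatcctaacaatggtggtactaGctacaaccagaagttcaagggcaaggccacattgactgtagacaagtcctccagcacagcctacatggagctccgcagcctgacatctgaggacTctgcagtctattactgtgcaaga
Ighv1-18: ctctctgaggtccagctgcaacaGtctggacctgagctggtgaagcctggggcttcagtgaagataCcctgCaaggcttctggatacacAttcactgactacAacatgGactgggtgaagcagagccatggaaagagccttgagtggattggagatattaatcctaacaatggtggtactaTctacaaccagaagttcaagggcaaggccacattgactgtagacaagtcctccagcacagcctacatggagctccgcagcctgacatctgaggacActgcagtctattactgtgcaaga
Every 150-base window of either transcript was found in no other annotated immunoglobulin V gene or pseudogene, counting exact matches of germline sequence only.

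Ighv1-18 was at 0.105 to 0.415 CPM (median 0.220) in the wild-type libraries, 0.459 to 2.35 CPM (median 1.14) in Dp16 and 0.537 to 1.83 CPM (median 1.09) in Dp16 2xIFNRs. No library of either Dp16 genotype overlapped wild-type. Its log2 fold change was 2.38 ± 0.46 (edgeR adjusted p = 0.00504) in Dp16 and 2.19 ± 0.46 (edgeR adjusted p = 0.00871) in Dp16 2xIFNRs. Ighv1-26 stood at 0.210 to 0.787 CPM (median 0.632) in the wild-type libraries, 0.844 to 5.53 CPM (median 2.28) in Dp16 and 0.573 to 8.86 CPM (median 1.13) in Dp16 2xIFNRs. Its Dp16 libraries were all above wild-type and rose by 2.24 ± 0.62 (edgeR adjusted p = 0.0464) on the log2 scale, whereas the Dp16 2xIFNRs value of 2.13 ± 0.64 (edgeR adjusted p = 0.0603) missed the threshold, with 2 libraries inside the wild-type range. The Dp16 call of Ighv1-26 was close to the threshold: 17 of 26 alternatives ended it, among them leaving out Dp16 2 and 3 together, at 1.60 (edgeR adjusted p = 0.213). Leaving out 1 library ended it for wild-type 1, 2, 3, 4, 5 or 6, Dp16 1, 2, 3, 4 or 6 or Dp16 2xIFNRs 2, 3 or 4 (edgeR adjusted p = 0.0517 to 0.132). The highest level of this segment, 8.86 CPM, came from Dp16 2xIFNRs 1.

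Ighv1-53 rose in both genotypes. It was at 0.140 to 0.870 CPM (median 0.340) in the wild-type libraries, 0.951 to 3.49 CPM (median 1.398) in Dp16 and 0.734 to 5.91 CPM (median 2.17) in Dp16 2xIFNRs. Only 1 wild-type library, wild-type 2, exceeded any Dp16 2xIFNRs library. The log2 fold change was 2.22 ± 0.49 (edgeR adjusted p = 0.0126) in Dp16, where no library overlapped wild-type, and 2.75 ± 0.48 (edgeR adjusted p = 0.00221) in Dp16 2xIFNRs.

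Among less abundant heavy segments, Ighv1-5 had 0 to 0.0382 CPM (median 0.00888) in wild-type, where 3 libraries were at 0, and 0 to 0.790 CPM (median 0.570) in Dp16, where Dp16 2 was at 0. The log2 fold change of Ighv1-5 was 4.94 ± 1.00 (edgeR adjusted p = 0.00673) in Dp16 and 3.02 ± 1.09 (edgeR adjusted p = 0.130) in Dp16 2xIFNRs. Ighv6-6 ranged over 0 to 0.104 CPM (median 0.0364) in wild-type and 0.183 to 1.18 CPM (median 0.431) in Dp16, without overlap, for a change of 3.55 ± 0.77 (edgeR adjusted p = 0.0114). The wild-type levels of both rest on few counts, 4 and 13 over the 6 libraries.

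Ighv4-1, the single member of its family, was at 0 to 0.142 CPM (median 0.0382) in wild-type and 0.247 to 1.55 CPM (median 0.366) in Dp16 2xIFNRs, and no library overlapped. It rose by 3.87 ± 0.77 (edgeR adjusted p = 0.00610) on the log2 scale in Dp16 2xIFNRs and by 3.03 ± 0.77 (edgeR adjusted p = 0.0303) in Dp16. Ighv1-19 was likewise above all wild-type libraries in Dp16 2xIFNRs, at 0.376 to 2.13 CPM (median 0.751) against 0.0175 to 0.346 CPM (median 0.209), with a log2 change of 2.34 ± 0.48 (edgeR adjusted p = 0.00774). Ighv1-7 and Ighv14-3 passed the test in both genotypes, with log2 changes in Dp16 of 3.03 ± 0.68 and 2.71 ± 0.72. Ighv1-7 lost its call in Dp16 without Dp16 3 (2.45, edgeR adjusted p = 0.0596), without Dp16 2 and 3 (2.61, edgeR adjusted p = 0.0655) and without the sex covariate (3.00, edgeR adjusted p = 0.0716). In Dp16 2xIFNRs it lost it without wild-type 1, 3 or 4 or without Dp16 2xIFNRs 1 or 4 (2.28 to 2.67, edgeR adjusted p = 0.0530 to 0.0776), and without the sex covariate (2.47, edgeR adjusted p = 0.150). Ighv9-3 passed in Dp16 (1.78 ± 0.49, edgeR adjusted p = 0.0459) and had 1.65 ± 0.49 (edgeR adjusted p = 0.0584) in Dp16 2xIFNRs.

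Some of the most abundant heavy segments did not pass the test. Ighv1-81 was at 0.631 to 2.04 CPM (median 1.400) in the wild-type libraries, 0.996 to 2.86 CPM (median 1.81) in Dp16 and 0.608 to 1.46 CPM (median 1.07) in Dp16 2xIFNRs. The 3 groups overlapped, and neither log2 fold change passed the test, at 0.36 ± 0.29 (edgeR adjusted p = 0.596) in Dp16 and -0.38 ± 0.30 (edgeR adjusted p = 0.537) in Dp16 2xIFNRs. For Ighv3-6 the values were 0.81 ± 0.43 and 1.22 ± 0.42 (edgeR adjusted p = 0.355 and 0.113). Ighv1-9 likewise did not pass in either comparison.

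The kappa segments lie between chr6:67555497 and 70704177 (GRCm38) on both strands. By mean RPKM, Igkv1-110 led at 10.3, with Igkv19-93 (8.65), Igkv10-96 (8.32), Igkv4-59 (8.29), Igkv6-23 (8.03) and Igkv1-117 (7.49) next. The last 90 coding bases are shown for 5 kappa segments that the results turn on, 5′ to 3′ from GENCODE M21, with the codon of the conserved cysteine in capitals. That codon opens the stretch that joining to a J segment completes and that contacts antigen.
Igkv1-110: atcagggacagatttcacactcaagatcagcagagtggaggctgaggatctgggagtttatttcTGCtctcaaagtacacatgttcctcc
Igkv10-96: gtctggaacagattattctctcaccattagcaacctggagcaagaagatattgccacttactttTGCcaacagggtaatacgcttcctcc
Igkv5-43: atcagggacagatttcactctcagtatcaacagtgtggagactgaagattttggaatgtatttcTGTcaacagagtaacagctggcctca
Igkv4-59: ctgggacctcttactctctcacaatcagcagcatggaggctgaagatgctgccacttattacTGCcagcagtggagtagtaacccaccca
Igkv4-72: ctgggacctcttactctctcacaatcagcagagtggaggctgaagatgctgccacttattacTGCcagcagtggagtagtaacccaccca
Igkv4-59 and Igkv4-72 are members of 1 family.

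Igkv1-110 (chr6:68270485-68271267, plus strand) was the highest kappa segment in 5 of the 18 libraries. It had 0.784 to 5.08 CPM (median 2.34) in the wild-type libraries, 4.31 to 5.83 CPM (median 5.13) in Dp16 and 2.48 to 7.16 CPM (median 3.98) in Dp16 2xIFNRs. The groups overlapped, and the log2 fold changes of 0.78 ± 0.33 (edgeR adjusted p = 0.211) and 0.54 ± 0.33 (edgeR adjusted p = 0.412) did not pass the test. Igkv1-117 did not pass either, at 0.99 ± 0.37 in Dp16 and 0.58 ± 0.37 in Dp16 2xIFNRs. Igkv19-93 rose by 2.27 ± 0.59 (edgeR adjusted p = 0.0344) in Dp16.

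Igkv5-43 (chr6:69823355-69823943, minus strand) had the smallest p of all segments in Dp16. Its levels were 0.191 to 0.578 CPM (median 0.341) in the wild-type libraries, 1.32 to 3.89 CPM (median 2.22) in Dp16 and 0.428 to 3.18 CPM (median 0.851) in Dp16 2xIFNRs. Dp16 did not overlap wild-type, while 3 Dp16 2xIFNRs libraries lay within the wild-type range. The log2 fold change was 2.62 ± 0.47 (edgeR adjusted p = 0.00300) in Dp16 and 1.61 ± 0.47 (edgeR adjusted p = 0.0542) in Dp16 2xIFNRs, and the difference between the 2 genotypes was -1.01 ± 0.43 (edgeR adjusted p = 0.850). Of the called segments it was the one with the fewest unique windows. It differs from Igkv5-45 by 5 bases, and 80.9% of its 150-base windows are unique, so that reads can be shared between them. Igkv5-45 itself had 2 counts over the wild-type libraries, 163 over Dp16 and 113 over Dp16 2xIFNRs. How far the reads of these segments were shared was not tested.

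Igkv4-72 (chr6:69226854-69227433, minus strand) stood apart from wild-type in both genotypes. It was at 0 to 0.284 CPM (median 0.158) in the wild-type libraries, 0.473 to 4.12 CPM (median 1.31) in Dp16 and 1.05 to 7.38 CPM (median 1.61) in Dp16 2xIFNRs, with no overlap. The log2 fold changes were 3.45 ± 0.70 (edgeR adjusted p = 0.00673) and 3.93 ± 0.71 (edgeR adjusted p = 0.00268). In Dp16 2xIFNRs its highest library, number 3, was far from the other 5.

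Igkv4-59 (chr6:69438218-69438757, minus strand) had 0.115 to 1.41 CPM (median 0.858) in the wild-type libraries, 1.30 to 5.36 CPM (median 4.52) in Dp16 and 2.07 to 11.1 CPM (median 3.37) in Dp16 2xIFNRs. All Dp16 2xIFNRs libraries and 5 of 6 Dp16 libraries were above the wild-type maximum. It rose by 2.18 ± 0.52 (edgeR adjusted p = 0.0197) on the log2 scale in Dp16 and by 2.39 ± 0.52 (edgeR adjusted p = 0.0109) in Dp16 2xIFNRs. Without Dp16 libraries 2 and 3 the Dp16 change was 2.09 and no longer passed (edgeR adjusted p = 0.0694), as without Dp16 3 alone (2.03, edgeR adjusted p = 0.0537) and without the sex covariate (2.19, edgeR adjusted p = 0.0563).

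Igkv4-57-1 was above wild-type in all Dp16 2xIFNRs libraries, at 0.394 to 13.9 CPM (median 2.33) against 0 to 0.311 CPM (median 0.211). Its log2 fold change there was 4.17 ± 0.85 (edgeR adjusted p = 0.00698), and in Dp16 it was 3.30 ± 0.84 (edgeR adjusted p = 0.0303). Igkv17-127 rose by 1.64 ± 0.35 (edgeR adjusted p = 0.0111) and 1.98 ± 0.35 (edgeR adjusted p = 0.00244), and lost the Dp16 call without the sex covariate (1.54, edgeR adjusted p = 0.140). Igkv10-96 passed in Dp16 2xIFNRs (2.09 ± 0.53, edgeR adjusted p = 0.0251), at levels of 1.18 to 17.6 CPM (median 3.13). Igkv8-27 passed in the same comparison (2.75 ± 0.71, edgeR adjusted p = 0.0290). Igkv1-135 passed in Dp16 (2.02 ± 0.48, edgeR adjusted p = 0.0205), but not without Dp16 libraries 2 and 3 (1.90, edgeR adjusted p = 0.0614), without Dp16 3 alone (1.72, edgeR adjusted p = 0.0704) or without the sex covariate (1.99, edgeR adjusted p = 0.0660). Igkv10-96 lost its call without Dp16 2xIFNRs 1 (1.31) or without wild-type 1, 3 or 4 (edgeR adjusted p = 0.0568 to 0.0746). Igkv8-27 lost it without wild-type 1, 3, 5 or 6 or without Dp16 2xIFNRs 3 or 5 (2.16 to 2.65, edgeR adjusted p = 0.0516 to 0.0912), without the sex covariate (2.75, edgeR adjusted p = 0.0781) and with the replicate block (2.77, edgeR adjusted p = 0.0713).

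Igkv12-98 had 0 counts in all 6 wild-type libraries, which allows up to 0.00925 CPM over the group. It was seen in all 6 Dp16 libraries, with 131 counts in all, and in 5 of 6 Dp16 2xIFNRs libraries, with 62. Against a floor of 3 counts over the wild-type group, Igkv12-98 was at least 47.9-fold higher in Dp16 and at least 21.6-fold higher in Dp16 2xIFNRs, counting error only. Most of the Dp16 counts came from Dp16 3, at 1.62 CPM, while the other 5 libraries had 0.150 to 0.317 CPM. It passed the edgeR test in both comparisons (adjusted p = 0.0138 and 0.0497).

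Of the 3 lambda segments, Iglv1 (chr16:19085017-19085500, minus strand) supplied most lambda V counts in each genotype, 86.8 ± 9.94% in wild-type (SD, n = 6). The lambda segments lie on chromosome 16 as well, but outside the stretch that is duplicated in Dp16. The end of Iglv1 is shown as for the kappa segments.
Iglv1: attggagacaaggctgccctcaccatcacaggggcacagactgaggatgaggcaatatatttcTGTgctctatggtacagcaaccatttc
Iglv1 was at 0.744 to 1.80 CPM (median 1.19) in the wild-type libraries, 1.39 to 5.59 CPM (median 3.22) in Dp16 and 1.73 to 3.80 CPM (median 2.71) in Dp16 2xIFNRs. It rose by 1.41 ± 0.28 (edgeR adjusted p = 0.00599) in Dp16 and 1.07 ± 0.28 (edgeR adjusted p = 0.0303) in Dp16 2xIFNRs on the log2 scale. Iglv2 and Iglv3 were near or below 1 CPM in every library and did not pass the test, with log2 fold changes of 0.98 ± 0.91 and 1.71 ± 0.78 in Dp16. In Dp16 2xIFNRs they were 1.45 ± 0.90 and 1.10 ± 0.78.

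Part of these calls depended on the libraries. Of the 26 segments called in Dp16, 10 also passed without Dp16 libraries 2 and 3, namely Igkv5-43, Ighv1-18, Iglv1, Ighv1-5, Igkv4-72, Igkv17-127, Ighv6-6, Ighv1-53, Igkv12-98 and Igkv3-5 (Igkv3-5 is named only because it was among them). Of these 10, all but Igkv17-127 and Igkv3-5 passed under every alternative that tested them. Without those 2 libraries Ighv4-1, Ighv14-3, Ighv9-3, Igkv19-93 and Igkv4-57-1 missed the threshold in Dp16, at log2 changes of 2.496, 2.59, 1.89, 1.90 and 2.61 (edgeR adjusted p = 0.163, 0.111, 0.0958, 0.115 and 0.152). Each of these 5 missed it without the sex covariate as well. Leaving out 1 library ended the Dp16 call of Ighv4-1 for wild-type 1, 2, 3, 4 or 6 or Dp16 2, 3 or 6 (edgeR adjusted p = 0.0522 to 0.0669). For Ighv14-3 these libraries were wild-type 1, 2, 3, 4 or 6 or Dp16 1, 3 or 5 (edgeR adjusted p = 0.0541 to 0.0875). Ighv9-3 depended on wild-type 1, 2, 3, 4 or 6, Dp16 1, 2, 3 or 6 or Dp16 2xIFNRs 1, 4 or 6 (edgeR adjusted p = 0.0519 to 0.131). For the kappa segment Igkv19-93 they were wild-type 2, 3, 4 or 6 or Dp16 1 or 3 (edgeR adjusted p = 0.0604 to 0.0896), and for Igkv4-57-1 wild-type 1, 3 or 4 or Dp16 3 or 6 (edgeR adjusted p = 0.0589 to 0.104).

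In Dp16 2xIFNRs, 9 of the 23 called segments passed under every alternative that tested them, namely Ighv1-53, Igkv17-127, Igkv4-72, Ighv4-1, Igkv4-57-1, Ighv1-19, Ighv1-18, Ighv14-3 and Igkv4-59. The call of Iglv1 was lost there without wild-type 1, 2 or 6 or Dp16 2xIFNRs 1, 2, 3 or 5 (edgeR adjusted p = 0.0545 to 0.0822) and without the sex covariate. Igkv12-98 lost it in 19 of 25 alternatives, among them leaving out wild-type 1, 2, 3, 4, 5 or 6, Dp16 1, 2, 4, 5 or 6 or Dp16 2xIFNRs 1, 3, 5 or 6 (edgeR adjusted p = 0.0508 to 0.0993).

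**Figure D3:**
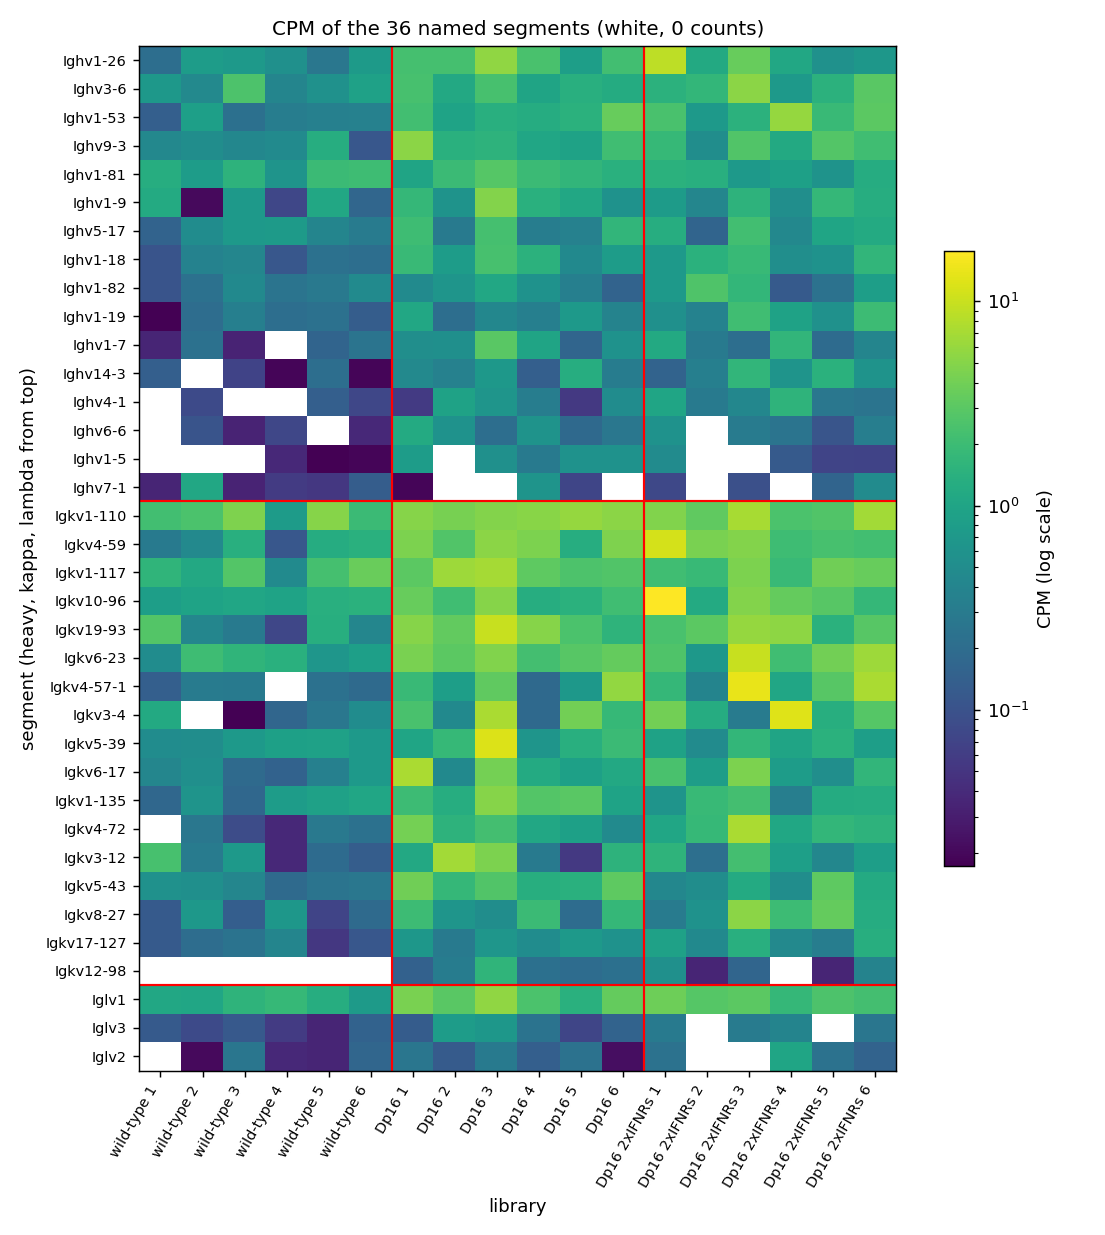
CPM on a log colour scale for the 36 named V segments (rows; heavy, kappa and lambda separated by red lines) in the 18 libraries (columns; genotypes separated by red lines), with white for 0 counts. Igkv12-98 is white in all 6 wild-type libraries, the groups overlap for Ighv1-81 and Igkv1-110, and single bright cells, such as Igkv10-96 in Dp16 2xIFNRs 1 (17.6 CPM), mark segments high in 1 library.

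More different segments were seen in the Dp16 lines, also after each library was reduced to the same number of V counts. At an expected draw of 1566 V counts, the lowest total of any library, 108 to 129 (median 119) segments were seen in wild-type, 134 to 141 (median 137) in Dp16 and 123 to 139 (median 134) in Dp16 2xIFNRs. The means were 119 ± 7.69, 137 ± 2.75 and 132 ± 6.62 (SD, n = 6). All 6 Dp16 libraries, and so also the 4 without Glycam1 counts, and 4 of 6 Dp16 2xIFNRs libraries exceeded the highest wild-type library. Without thinning, 124 ± 10.9, 152 ± 6.21 and 149 ± 11.1 segments had at least 1 count, a number that also grows with the number of V counts. Among all segments, 67 were seen in each of the 6 wild-type libraries, 109 in each Dp16 library and 100 in each Dp16 2xIFNRs library.

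The same held for the heavy and kappa chains taken alone. Heavy segments seen in 561 heavy V counts numbered 55.7 ± 4.59 in wild-type, 65.4 ± 1.87 in Dp16 and 62.4 ± 3.86 in Dp16 2xIFNRs, with 6 and 4 of 6 libraries above all wild-type. Kappa segments seen in 906 kappa V counts numbered 60.7 ± 3.16, 69.4 ± 1.97 and 67.7 ± 2.95, and no library of either Dp16 genotype overlapped wild-type.

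**Figure D4:**
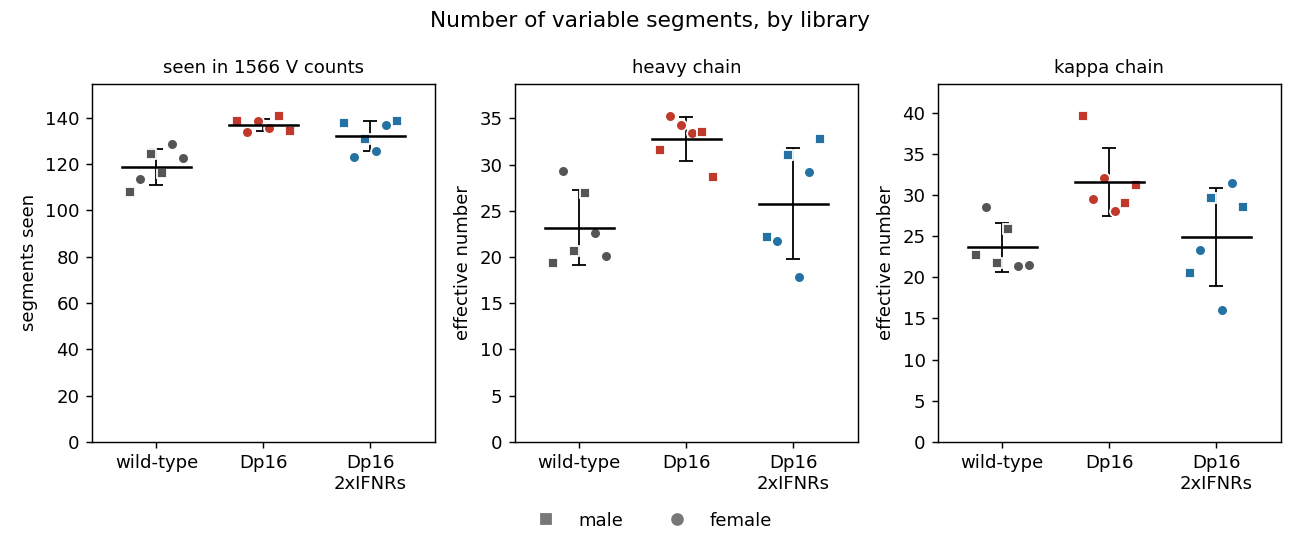
Left, number of V segments seen when each library is reduced to 1566 V counts; middle and right, effective number of heavy and kappa segments (inverse Simpson index), by genotype, with squares for males, circles for females and mean ± SD (n = 6). Dp16 lies above wild-type in the left panel without overlap, and Dp16 2xIFNRs reaches from 17.8 to 32.8 effective heavy segments.

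The effective number, the number of equally used segments that would give the same concentration, is low where a few segments take most counts. For the heavy chain it was 19.4 to 29.3 (median 21.6) in wild-type, 28.6 to 35.2 (median 33.5) in Dp16 and 17.8 to 32.8 (median 25.7) in Dp16 2xIFNRs. For the kappa chain it was 21.4 to 28.6 (median 22.2), 28.1 to 39.6 (median 30.4) and 16.0 to 31.4 (median 25.9). In both chains 5 of 6 Dp16 libraries were above every wild-type library, whereas in Dp16 2xIFNRs 2 libraries in each chain were above every wild-type library and 1 (heavy) and 2 (kappa) below all.

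In wild-type the first heavy segment took 11.3 ± 3.31% of heavy V counts (SD, n = 6), in Dp16 7.79 ± 1.48% and in Dp16 2xIFNRs 11.7 ± 4.40%. The first kappa segment took 11.4 ± 2.61, 7.71 ± 1.17 and 11.8 ± 4.98% of kappa V counts. The 5 first heavy segments together held 36.6 ± 5.19% in wild-type, 27.7 ± 2.11% in Dp16 and 33.7 ± 4.52% in Dp16 2xIFNRs. Here too 5 of 6 Dp16 libraries were below every wild-type library, and 2 of 6 Dp16 2xIFNRs libraries were.

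Different libraries were led by different segments. Over the 18 libraries 8 heavy and 11 kappa segments came first at least once. Ighv1-81 led 3 wild-type libraries and Dp16 5, and Ighv1-26 led Dp16 2, 3 and 4 and Dp16 2xIFNRs 1. Igkv1-110 led wild-type 2, 3 and 5 and Dp16 4 and 5, and Igkv4-57-1 led Dp16 6 and Dp16 2xIFNRs 3 and 6. By RPKM in place of counts the first heavy segment was the same in 18 of 18 libraries and the first kappa segment in 16.

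**Figure D5:**
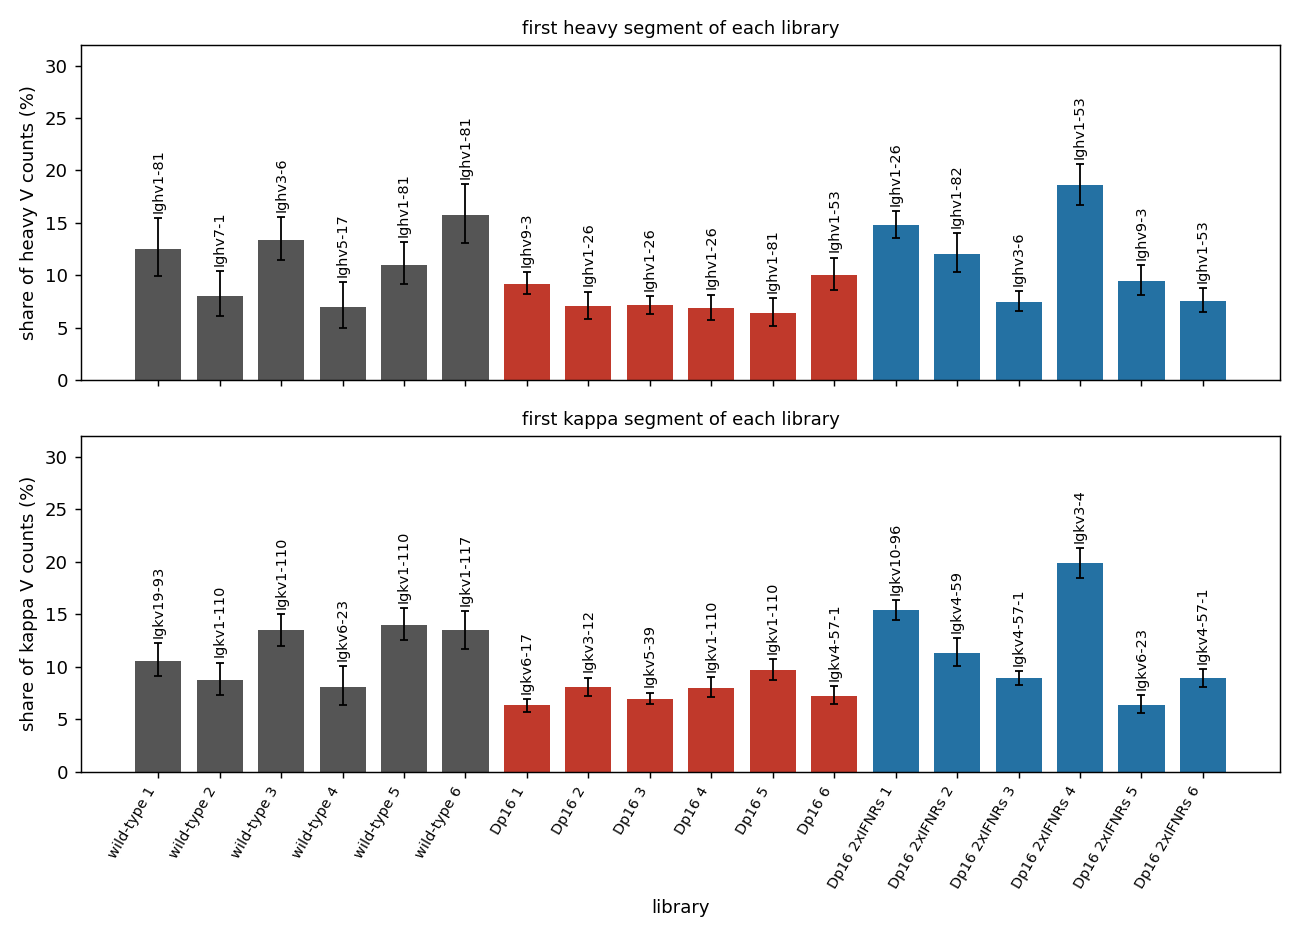
Share of heavy (top) and kappa (bottom) V counts taken by the first segment of each library, named above its bar, with exact binomial 95% intervals for counting error; grey is wild-type, red Dp16 and blue Dp16 2xIFNRs. The highest bars in both panels belong to Dp16 2xIFNRs 4, with Ighv1-53 at 18.6% and Igkv3-4 at 19.9%.

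Dp16 2xIFNRs 4, a female, had the lowest effective number of the 18 libraries in both chains. Ighv1-53 (chr12:115158403-115158835, minus strand) took 18.6% (95% interval 16.7 to 20.6%) of its heavy V counts, by the exact binomial method. Igkv3-4 (chr6:70671788-70672377, plus strand) took 19.9% (95% interval 18.5 to 21.3%) of its kappa V counts. The second segments held 5.27 and 8.67%. Bulk counts do not show whether these heavy and kappa segments came from the same cells. The last 300 coding bases of the pair are given 5′ to 3′ from GENCODE M21, with the codon of the conserved cysteine in capitals.
Ighv1-53: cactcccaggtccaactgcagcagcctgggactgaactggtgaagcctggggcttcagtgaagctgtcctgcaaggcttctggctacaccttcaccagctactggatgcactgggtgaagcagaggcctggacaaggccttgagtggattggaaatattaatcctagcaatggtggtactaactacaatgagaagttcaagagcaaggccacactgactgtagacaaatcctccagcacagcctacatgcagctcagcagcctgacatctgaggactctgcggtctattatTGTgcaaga
Igkv3-4: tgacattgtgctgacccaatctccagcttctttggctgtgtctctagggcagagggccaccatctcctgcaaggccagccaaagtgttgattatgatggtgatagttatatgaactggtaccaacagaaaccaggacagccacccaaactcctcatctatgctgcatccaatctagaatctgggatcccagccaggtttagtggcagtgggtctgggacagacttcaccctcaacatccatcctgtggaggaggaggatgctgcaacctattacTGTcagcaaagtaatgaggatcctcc
Across all libraries Igkv3-4 had 0 to 1.16 CPM (median 0.219) in the wild-type libraries, 0.183 to 7.38 CPM (median 2.095) in Dp16 and 0.308 to 12.5 CPM (median 2.07) in Dp16 2xIFNRs. Its log2 fold change was 2.88 ± 0.93 (edgeR adjusted p = 0.0868) in Dp16 and 3.29 ± 0.94 (edgeR adjusted p = 0.0497) in Dp16 2xIFNRs. The latter call was lost in 18 of 27 alternatives, among them leaving out wild-type 2, 3, 4, 5 or 6, Dp16 1, 5 or 6 or Dp16 2xIFNRs 1, 2, 4, 5 or 6 (edgeR adjusted p = 0.0530 to 0.150).

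In Dp16 2xIFNRs 1, a male, Ighv1-26 took 14.8% (95% interval 13.6 to 16.1%) of heavy V counts and Igkv10-96 15.4% (95% interval 14.5 to 16.3%) of kappa V counts. In the other 5 libraries of this genotype Igkv10-96 was at 1.18 to 4.82 CPM. In wild-type the most dominant first segments were Ighv1-81 in wild-type 6, with 15.7% (95% interval 13.1 to 18.7%), and Igkv1-110 in wild-type 5, with 14.0% (95% interval 12.5 to 15.6%). The wild-type shares rest on fewer counts and have wider intervals.

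Families were taken as the name before the hyphen. Ighv1, with 53 members, summed to 7.82 ± 1.89 CPM in wild-type, 25.5 ± 11.02 in Dp16 and 25.1 ± 10.9 in Dp16 2xIFNRs (SD, n = 6). Its share of heavy V counts was 56.6 ± 7.88%, 58.3 ± 2.84% and 59.8 ± 5.35%. The next heavy families, Ighv5, Ighv3, Ighv9 and Ighv8, held 10.7 ± 5.09%, 7.64 ± 3.91%, 5.08 ± 1.76% and 3.47 ± 1.94% in wild-type. In Dp16 their shares were 7.58 ± 2.87%, 5.30 ± 1.52%, 6.06 ± 2.47% and 4.78 ± 1.72%.

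Among kappa families Igkv4, with 26 members, held 15.01 ± 2.11% of kappa V counts in wild-type, 20.1 ± 2.64% in Dp16 and 22.4 ± 4.25% in Dp16 2xIFNRs. Igkv1, with 10 members, held 20.2 ± 4.83%, 14.5 ± 4.28% and 12.5 ± 4.59%. In CPM, the Igkv4 sum was 4.35 ± 1.37, 19.5 ± 8.68 and 20.1 ± 13.1, and that of Igkv1 5.95 ± 2.52, 12.9 ± 3.00 and 9.79 ± 3.57. Igkv6, Igkv3 and Igkv8 were the next families, at 10.9 ± 4.66, 10.5 ± 5.75 and 6.95 ± 2.72 CPM in Dp16 against 3.18 ± 0.893, 2.39 ± 0.986 and 3.06 ± 0.910 in wild-type. These shares were not tested.

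With each locus divided into 3 parts of like segment number by distance from the J segments, the middle part of the kappa segments held 23.0 ± 4.97% of kappa V counts in wild-type, 31.6 ± 4.79% in Dp16 and 29.5 ± 4.50% in Dp16 2xIFNRs. The part farthest from the J segments held 42.5 ± 3.29, 35.2 ± 5.99 and 37.5 ± 4.29%, and the ranges overlapped in each case. The nearest part of the heavy chain held 27.6 ± 4.41, 26.3 ± 3.38 and 24.1 ± 2.60%.

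Libraries of different genotypes shared much of their V use. The overlap of 2 libraries was taken as the summed smaller share over segments. For the heavy chain its median was 51.2% within wild-type (15 pairs), 60.6% within Dp16, 54.4% within Dp16 2xIFNRs, 54.5% between wild-type and Dp16 and 57.7% between the 2 Dp16 genotypes. For kappa it was 56.6, 62.0, 60.5, 58.5 and 60.4% in the same order. These values were not tested, and libraries with more V counts sample their mix more precisely.

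The constant region genes and cell markers give the setting of these V segments. Of 11 immunoglobulin constant genes, 5 rose in Dp16 and 2 in Dp16 2xIFNRs, and 0 fell, by edgeR. DESeq2 called 7 (also Ighg2c and Ighm) and 3 (Ighg2b, Igkc and Iglc1). Without Dp16 libraries 2 and 3 edgeR called 1 in Dp16, Igkc, and 3 in Dp16 2xIFNRs, Ighg2b, Ighg2c and Igkc. Of all genes, these 3 settings called 4.23, 7.03 and 2.38% in Dp16 and 4.79, 7.32 and 5.35% in Dp16 2xIFNRs. The same shares stand beside the counts of the marker lists below. Igkc, the kappa constant gene, was at 51.2 to 98.1 CPM in wild-type, 142 to 457 in Dp16 and 78.3 to 389.6 in Dp16 2xIFNRs. It rose by 1.67 ± 0.32 (edgeR adjusted p = 0.00498) and 1.35 ± 0.33 (edgeR adjusted p = 0.0198) on the log2 scale. Ighg2b, the constant gene of IgG2b, rose by 2.52 ± 0.55 (edgeR adjusted p = 0.0123) and 2.42 ± 0.55 (edgeR adjusted p = 0.0134). Igha, the constant gene of IgA, passed in Dp16 (1.24 ± 0.35, edgeR adjusted p = 0.0466) and had 1.14 ± 0.35 (edgeR adjusted p = 0.0681) in Dp16 2xIFNRs. Ighg1 and Iglc1 passed in Dp16, at 3.06 ± 0.71 (edgeR adjusted p = 0.0175) and 1.37 ± 0.34 (edgeR adjusted p = 0.0246), and in Dp16 2xIFNRs had 1.32 ± 0.68 and 0.93 ± 0.34. The difference between the 2 genotypes was not called for either. Ighm, the IgM constant gene, had 2.19 ± 0.64 (edgeR adjusted p = 0.0566) and 1.65 ± 0.63 (edgeR adjusted p = 0.153). The remaining Ighd, Ighg2c, Ighg3, Iglc2 and Iglc3 did not pass edgeR's test in either comparison.

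Kappa V segments had 0.385 ± 0.0458 counts per count of Igkc in wild-type, 0.412 ± 0.0262 in Dp16 and 0.446 ± 0.0387 in Dp16 2xIFNRs (SD, n = 6). Heavy V segments had 0.143 ± 0.0126, 0.146 ± 0.0216 and 0.161 ± 0.00671 counts per count of the heavy constant genes. The ratios of wild-type and Dp16 overlapped, and 4 and 3 of the 6 Dp16 2xIFNRs libraries were above the wild-type maximum for kappa and heavy.

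Markers of B cells were low and did not pass. Of the 13 tested genes of a 14-gene B cell list, edgeR called 0 in Dp16 and 0 in Dp16 2xIFNRs, and DESeq2 called 0 in both. At an unadjusted p under 0.05 there were 3 in Dp16, all higher (Ms4a1, Cd79a and Cd22). In Dp16 2xIFNRs there was 1, Fcmr, which was lower (-0.70 ± 0.30). Ms4a1 had log2 fold changes of 1.23 ± 0.59 and 0.29 ± 0.59, Cd79a 0.94 ± 0.41 and 0.63 ± 0.41, and Cd79b 0.48 ± 0.30 and 0.03 ± 0.31. The summed level of this list was 4.50 to 12.004 CPM in wild-type, 5.69 to 18.6 in Dp16 and 5.76 to 9.79 in Dp16 2xIFNRs.

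Of 12 tested genes of a plasma cell list, 2 rose in Dp16 and 1 in Dp16 2xIFNRs by edgeR. DESeq2 called 4 (Jchain, Mzb1, Pou2af1 and Txndc5) and 2 (Jchain and Txndc5). Without Dp16 libraries 2 and 3 neither Dp16 call of edgeR held, and Jchain and Txndc5 were called in Dp16 2xIFNRs. Jchain, which links IgA and IgM into polymers, was at 11.47 to 23.9 CPM in wild-type, 25.7 to 75.9 in Dp16 and 15.9 to 86.8 in Dp16 2xIFNRs, with log2 fold changes of 1.40 ± 0.32 (edgeR adjusted p = 0.0167) and 1.13 ± 0.33 (edgeR adjusted p = 0.0515). Pou2af1, a coactivator of immunoglobulin genes, rose by 1.67 ± 0.46 (edgeR adjusted p = 0.0439) in Dp16. Txndc5, a chaperone of secretory cells that kidney also expresses at high levels, rose by 0.26 ± 0.06 (edgeR adjusted p = 0.0120) in Dp16 2xIFNRs. Mzb1 had 1.11 ± 0.33 (edgeR adjusted p = 0.0653) and 0.23 ± 0.34 (edgeR adjusted p = 0.774). Xbp1, the plasma cell transcription factor that tubules also express, had 0.05 ± 0.13 and -0.03 ± 0.13. In Dp16 the value of Txndc5 was 0.19 ± 0.06 (edgeR adjusted p = 0.0686). Prdm1 had -0.40 ± 0.17 and 0.25 ± 0.17, Derl3 -0.01 ± 0.34 and 0.20 ± 0.34, and Eaf2 0.09 ± 0.10 and -0.16 ± 0.10. Tnfrsf13b had 0.60 ± 0.23 and 0.40 ± 0.24, and Sdc1 0.16 ± 0.08 and 0.22 ± 0.08. Fkbp11 had 0.32 ± 0.17 and 0.34 ± 0.17, and Irf4 0.29 ± 0.21 and 0.42 ± 0.21. None of the genes from Prdm1 to Irf4 passed edgeR's test. An unadjusted p under 0.05 was reached by 7 of the 12 in Dp16, with Prdm1 lower, beside 17.1% of all genes. In Dp16 2xIFNRs 3 reached it, beside 18.2%. The median log2 fold change of the tested list was 0.24 and 0.25, beside -0.01 and 0.01 for all genes. Tnfrsf17, the plasma cell receptor BCMA, had too few counts to be tested.

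Of 6 T cell genes, 4 rose in Dp16 and 2 in Dp16 2xIFNRs by edgeR, Cd4 by 1.12 ± 0.21 and 1.08 ± 0.21. DESeq2 called 5 (Cd8a as well) and 2, and without Dp16 libraries 2 and 3 edgeR called Cd4 and Trac in both. The summed level of the T cell list was 3.52 to 8.10 CPM in wild-type, 8.03 to 16.4 in Dp16 and 7.34 to 11.45 in Dp16 2xIFNRs. Of 6 lymphoid stroma genes in the table, 4 were tested and 1, Clu, which kidney tubules also express, rose in both comparisons by edgeR. DESeq2 called Ccl21a as well in Dp16, and without Dp16 libraries 2 and 3 edgeR's call of Clu did not hold there. Their summed level, nearly all of it Clu, was 278 to 436 CPM in wild-type, 358 to 570 in Dp16 and 347 to 518 in Dp16 2xIFNRs, and Glycam1 was at 0 in wild-type. The hemoglobin genes, a sign of blood left in the tissue, did not pass in either comparison by edgeR or DESeq2 (0 of 5 at an unadjusted p under 0.05). The part of these cells in the V segment results was not tested.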

How the data were processed

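Kidney RNA of 18 samples was sequenced in paired reads of 150 bases from strand-specific polyA libraries, per the labels' protocols. The authors deposited raw counts per gene and RPKM per gene. Per the submitters' processing notes, these come from HISAT2 2.1.0 alignments to GRCm38 counted with HTSeq 0.6.1, with bcl2fastq, SAMtools 1.5 and FastQC 0.11.5 also listed; the strand setting and the handling of reads with several matches are not given in the sources used here. Deposited RPKM served only to compare levels between segments per length. CPM are counts over library totals. Counts were tested with edgeR 4.0.16 (R 4.3.3, limma 3.58.1): TMM scaling, filter at a minimum count of 10 and total of 15, quasi-likelihood fit over all 3 genotypes with sex as covariate, and Benjamini-Hochberg adjustment over all 17575 genes. The code was tested on simulated data. Alternatives were RLE scaling, other filters, DESeq2 1.42.0, other covariates, the replicate block, 2 groups alone, and libraries left out. Shares carry exact binomial 95% intervals, which cover counting error only. The named segments are the highest 6 heavy, 6 kappa and 3 lambda by mean CPM, those called (12 of smallest p where more were called) and each library's first heavy and kappa segment; others in the text were chosen after their values were seen. The segments and lists were chosen with earlier results of these data known.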

Additional observations from a re-analysis of the deposited data

Results flagged for a closer look

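In each genotype of 6 libraries, the distance from the highest or lowest library to its neighbour was compared with the whole range. For Dixon's criterion the nominal rate is 1 group in 20. That rate does not apply here, since some segments were named because they came first in a library. Of 141 such groups 23 had a highest library that stood apart by this criterion. In wild-type these were Ighv1-53 at 0.870 CPM in wild-type 2, Ighv3-6 at 2.53 CPM in wild-type 3 and Ighv7-1 at 1.10 CPM in wild-type 2. They also included Ighv9-3 at 1.28 CPM in wild-type 5 and Igkv3-12 at 2.35 CPM in wild-type 1. In Dp16 these were the effective number of kappa segments at 39.6 in Dp16 1, heavy V counts per heavy constant count at 0.186 in Dp16 4 and Ighv1-26 at 5.53 CPM in Dp16 3. They also included Ighv1-7 at 2.97 CPM in Dp16 3, Ighv1-9 at 4.82 CPM in Dp16 3 and Ighv7-1 at 0.629 CPM in Dp16 4. They also included Ighv9-3 at 5.36 CPM in Dp16 1, Igkv12-98 at 1.62 CPM in Dp16 3 and Igkv5-39 at 12.3 CPM in Dp16 3. In Dp16 2xIFNRs these were Ighv1-26 at 8.86 CPM in Dp16 2xIFNRs 1, Ighv1-5 at 0.487 CPM in Dp16 2xIFNRs 1 and Ighv7-1 at 0.494 CPM in Dp16 2xIFNRs 6. They also included Igkv10-96 at 17.6 CPM in Dp16 2xIFNRs 1, Igkv3-4 at 12.5 CPM in Dp16 2xIFNRs 4 and Igkv4-59 at 11.1 CPM in Dp16 2xIFNRs 1. They also included Igkv4-72 at 7.38 CPM in Dp16 2xIFNRs 3, Igkv5-43 at 3.18 CPM in Dp16 2xIFNRs 5 and Iglv2 at 1.01 CPM in Dp16 2xIFNRs 4. Dp16 3 and Dp16 2xIFNRs 1 were the libraries that stood apart most often, for 5 and 4 measures.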

How the results depend on the processing

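The number of V segments called in Dp16 (26) was 56 with no filter on low counts, 4 with genes kept from a mean log2 CPM of 1 upward, 41 with DESeq2, 8 without the sex covariate and 10 without the 2 libraries holding Glycam1 counts, an alternative chosen after seeing the data. The share of all genes called moved too, from 4.23% to 2.92, 5.55, 7.03, 1.08 and 2.38% in the same order. For Dp16 2xIFNRs (23) the first 4 of these gave 45, 6, 40 and 10, beside 2.98, 6.22, 7.32 and 1.33% of all genes. The stricter filter kept only 10 segments for testing; the cause of the other shifts was not tested. Leaving out 1 library gave 12 to 32 calls in Dp16 (2.42 to 4.59% of all genes) and 12 to 25 in Dp16 2xIFNRs (2.96 to 5.18%). Between the 2 Dp16 genotypes the count was 0 under every alternative run.

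Differences in the other measures are in units of the pooled SD, negative where a library is less dominated. The heavy chain difference between Dp16 and wild-type was -1.36 by the share of the first segment, -2.90 by the inverse Simpson number, -2.62 by that number without the bias of small totals and -4.41 by Shannon entropy, and the kappa difference was -1.82 and, by Shannon entropy, -2.91. For Dp16 2xIFNRs Shannon entropy gave -1.18 (heavy) and -1.10 (kappa) against 0.10 for both by the first share, so that the sign depends on the measure. The number of segments seen in Dp16 2xIFNRs moved from 1.86 to 3.14 when segments with at least 10 counts were counted without thinning. Leaving out 1 library moved the Dp16 differences over 1.46 to 1.78 (log2 total use), 2.92 to 4.05 (segments seen), -1.98 to -1.18 (heavy dominance) and -2.48 to -1.64 (kappa dominance). For Dp16 2xIFNRs these ranges were 1.30 to 1.68, 1.68 to 2.29, -0.31 to 0.34 and -0.40 to 0.40.

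With the sample number as a replicate block, 32, 22 and 0 segments were called in Dp16, in Dp16 2xIFNRs and between them. The share of all genes called was then 5.18, 5.38 and 0.0171%, beside 4.23, 4.79 and 0.0171% in the main fit. Correlations of same-numbered deviations ran from -0.165 to 0.202, with a median of 0.0062 beside -0.0109 for other numbers. Of 18 libraries, 7 correlated best with their own number, and no chance rate was computed for this count. Whether samples of the same number are related cannot be told from these values. The labels hold a second number, of unstated meaning, which 7 pairs of libraries of different genotypes share. The median overlap of V use in these pairs was 55.4% (heavy) and 59.9% (kappa), beside 54.9 and 58.7% in the 101 other pairs. Heavy overlaps ran from 45.3 to 65.9%, beside 37.9 to 68.3% in the other pairs. Kappa overlaps ran from 51.3 to 71.6%, beside 49.5 to 69.6%. Above that 69.6% lay Dp16 4 with Dp16 2xIFNRs 2 (71.6%) and Dp16 6 with Dp16 2xIFNRs 6 (70.9%). These values were not tested. Over the 12 segments of smallest p in each comparison with wild-type, 597 of 625 alternative values kept the call, 28 lost it and 0 reversed. Because these segments were picked by p in the same data, that share does not describe the other calls. Of all called segments, 8 of 26 in Dp16 and 9 of 23 in Dp16 2xIFNRs passed under every alternative that tested them. Leaving out 1 library or another ended the call of 17 and 14. Wild-type libraries held as few as 1566 V counts, which limits shares of rare segments there.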
